A study of Mus musculus with 6 samples.

Results

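This comparison set hippocampi of 18-month-old untreated Tg2576 mice (Tg-18mo) against hippocampi of 12-month-old untreated mice of the same line (Tg-12mo). It used 4 of the 6 Affymetrix MG430 2.0 chips of the study, 2 for each age, chosen by the age and treatment in their labels and not by any measured value. All mice were males on the C57BL/6 strain per the labels, C57BL/6J per the study's methods, and carried the APPSwe transgene, a human amyloid precursor protein (APP) cDNA with the Swedish mutation that is driven by the prion protein promoter, so that both ages overexpressed APP and no mice without the transgene were hybridised here. RNA from 4 mice was pooled for each chip, and the sources do not say whether both chips of an age carried different pools. The submitters describe the plaque load as low at 12 months and high at 18 months. The other 2 chips carried 18-month-old mice that drank captopril, an inhibitor of angiotensin-converting enzyme (ACE), in their water (Tg-18mo-ACEI; 20 mg per kg daily, over 6 months). Those chips only add to the estimate of the spread, and their signals are set beside some genes.

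In Tg2576 mice the amyloid-β (Aβ) peptide that is cut from APP collects in extracellular plaques as the animals age. Microglia gather around plaques and switch on receptors such as Trem2 and Clec7a, lysosomal proteases and complement, while astrocytes next to plaques raise the filament protein Gfap. The hippocampus also holds a neurogenic niche in the dentate gyrus, whose output of new neurons declines with age in mice.

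The question was which transcripts differed between the younger and the older untreated mice. These groups differed in both age and plaque load, and mice without the transgene were not hybridised. The part of ageing and the part of plaque disease in any difference were therefore not tested. The authors deposited 1 linear signal for each probe set on each chip, after scaling the chips to a target of 600. Of 45037 probe sets that are not chip controls, 22887 had a mean signal of at least 100 in Tg-18mo or Tg-12mo and were tested on the log2 scale with limma. The call threshold was an adjusted p (Benjamini-Hochberg) under 0.05. At 18 months 6019 probe sets were higher (26.3%) and 4969 were lower (21.7%). After quantile normalization, which gives all chips the same distribution of signals, 5093 were higher (22.3%) and 5093 were lower (22.3%). On both scales and in the same direction 4747 probe sets were higher (20.7%) and 4208 were lower (18.4%). Most differences were small: 61.6% of the higher and 65.6% of the lower calls were under 1.5-fold. At the thresholds of the study, an unadjusted p of 0.01 or less with at least 2-fold difference, 599 probe sets of 493 single-symbol genes were higher (2.62%) and 415 of 317 genes were lower (1.81%). Chips of the 2 ages did not overlap for 17168 probe sets (75.0%). With 2 chips of pooled RNA for each age, the p-values rest on how far chips lie apart, which may be technical, and say nothing of single mice.

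The chips of each age differed in more than these calls, and the part of the following values in any result was not tested. The median log2 difference (18 minus 12 months) was 0.05 over all probe sets tested, but it was -0.25 for mean signals from 6400 to 12800 and -0.56 above 12800, where 98.3% of 417 probe sets were lower at 18 months and 0 were higher. After quantile normalization these medians were -0.011 and -0.012. The 3′ probe set of the array's 18S ribosomal RNA control read 10219 and 11144 in Tg-18mo against 2125 and 2121 in Tg-12mo. The middle probe set of this control read 1662 and 1759 against 894 and 810, and the 5′ one 1779 and 1821 against 1578 and 1603. The ratio of the 3′ to the 5′ probe set, a sign of RNA breakage, was 1.98 and 1.88 against 1.83 and 1.77 for actin and 0.828 and 0.832 against 0.862 and 0.849 for Gapdh, so that the 2 genes moved in opposite directions. The 18 hybridisation control probe sets had geometric means of 1811 and 1873 in Tg-18mo and 4229.7 and 4243 in Tg-12mo, and the 27 poly-A controls 96.9 and 85.1 against 485 and 467. Values are on the deposited scale unless stated otherwise, and the value after quantile normalization is added where the call or the direction changed. A gene list is described by the brightest probe set of each gene, for which 28.3% of 12237 genes rose and 21.2% fell, 23.9% and 21.3% after quantile normalization, and 22.0% and 17.3% on both scales. These shares are the comparison for every list count below. The median log2 difference over these genes was 0.06, and 0.02 after quantile normalization. Members with a mean under 100 at 1 age passed the signal filter through the other age alone. The filter thus all but fixed the direction of their calls, and they are counted in the lists.

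**Figure D1:**
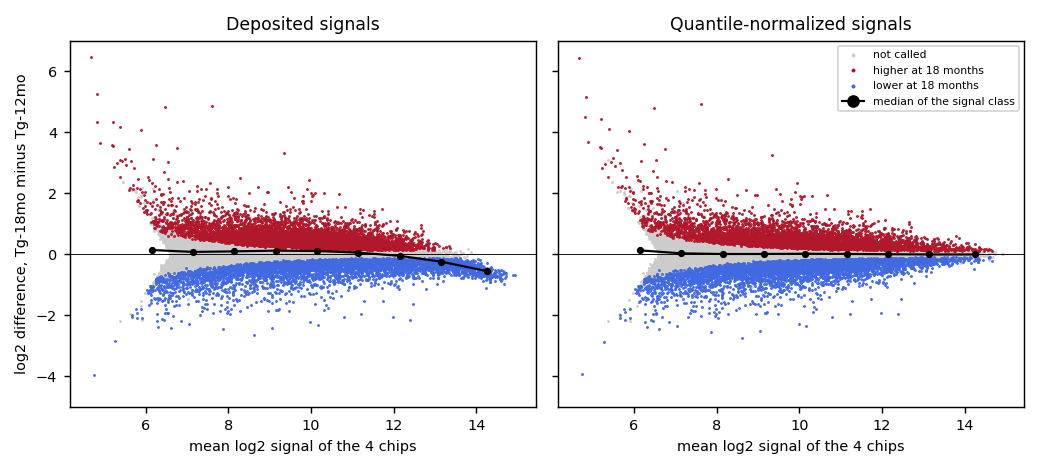
Log2 difference between Tg-18mo and Tg-12mo (y axis) against the mean log2 deposited signal of the 4 chips (x axis), 1 point for each tested probe set with 1 symbol, on the deposited scale (left) and after quantile normalization (right). Red and blue points were called higher and lower at 18 months. The black line joins the medians of 9 classes of mean signal over all 22887 tested probe sets, which end at -0.56 on the left and at -0.012 on the right.

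Markers of the labelled tissue were read at both ages, without another tissue for comparison. Of 10 markers of hippocampal neurons, all passed the signal filter, and 9 had signals of at least 248 on each of the 4 chips. Prox1, the transcription factor of dentate granule cells, had the lowest signals, from 139 to 220.4. Wfs1, Fibcd1, Pou3f1, Bok and Amigo2, markers of CA fields, did not pass the test between the ages. C1ql2, a synaptic organiser secreted by dentate granule cells, was higher at 18 months with signals of 1570.3 and 1580.0 at 18 months against 715 and 745 at 12 months, a log2 difference of 1.11 ± 0.058 (SE; adjusted p = 7.31e-06). Dsp, a desmosomal protein of granule cells, differed by 0.68 ± 0.085. Calb1, a calcium buffer, was called lower on the deposited scale with -0.20 ± 0.044, but its difference was -0.029 after quantile normalization. Neurod6, a transcription factor of pyramidal neurons, fell by 0.34 ± 0.076 on the deposited scale and also fell by 0.27 after quantile normalization. Calb1 was no longer called without Tg-18mo replicate 2 (-0.17, adjusted p = 0.0503).

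Among probe sets with a mean of at least 100 at both ages, the 12 largest rises that held on both scales belonged to 11 genes. They were H2-D1, Pip5k1a, E2f5, Kdm4a, Hipk2, Khdrbs1, Mark4, Glo1, Vps52, Nudt21 and Sh3d19. The heavy chain of a classical MHC class I molecule, H2-D1, led the list with 2 probe sets. The brighter had signals of 2047 and 2547 at 18 months against 417 and 429 at 12 months, a 5.40-fold difference (log2 2.43 ± 0.096, adjusted p = 2.19e-06). The other had signals of 2073 and 2018 at 18 months against 261 and 159.5 at 12 months, a 10.02-fold difference. Of its 2 dimmer probe sets, 1 differed by -0.10 ± 0.12 and 1 by 2.38 ± 0.97, and neither was called. Both captopril chips were also high, at 1632 and 1666 on the brighter probe set.

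Enzymes and regulators made up the rest. Pip5k1a, a kinase that makes the membrane lipid phosphatidylinositol bisphosphate, had signals of 834 and 656 at 18 months against 209 and 82.7 at 12 months, and its 3 other probe sets differed by 0.20 to 0.62. Kdm4a, a histone demethylase, had signals of 524 and 570.1 at 18 months against 148 and 96.1 at 12 months. Separate chips at both ages were a condition of this choice. Hipk2, a nuclear kinase, had signals of 836 and 956 at 18 months against 194 and 197 at 12 months, but another of its probe sets fell by 1.26 ± 0.34. This second probe set was not called without Tg-18mo replicate 2 or Tg-12mo replicate 2 (-1.09 to -1.20, adjusted p = 0.0510 to 0.0819). Mark4, a kinase that phosphorylates tau and other microtubule proteins, had signals of 491 and 393 at 18 months against 110.3 and 92.3 at 12 months, and its 2 other probe sets were called higher too, by 0.60 and 0.86. This made Mark4 one of the genes in which several probe sets moved together. Glo1, which detoxifies methylglyoxal, had signals of 1518 and 1472 at 18 months against 342 and 382 at 12 months on this probe set, while another fell by 0.56 ± 0.098. Nudt21, a subunit of the complex that chooses polyadenylation sites, had signals of 1036 and 982 at 18 months against 264 and 234 at 12 months. A second Nudt21 probe set rose by 1.74 ± 0.083, and 2 others differed by -0.05 and -0.08. Vps52, a tether of vesicles that return to the Golgi, rose on both of its probe sets, by 2.02 ± 0.092 and 0.69 ± 0.075. Of the 11 genes, 10 had another tested probe set, 8 had one called higher and 3 one called lower.

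The 12 largest falls belonged to 12 genes, which were Msi2, Ywhaz, Atp2b2, Snap25, Hnrnpab, Scd2, Ptp4a2, Fut9, Sdc4, Creg2, Map3k12 and Rpl27a. Snap25, a SNARE protein of synaptic vesicle fusion, had signals of 474 and 462 at 18 months against 2253 and 2116 at 12 months on the dimmer of its 2 probe sets, a 4.66-fold difference (log2 -2.22 ± 0.064, adjusted p = 7.81e-07). Its brighter probe set fell by 0.62 ± 0.045 on the deposited scale and stood at 0.06 after quantile normalization. Hnrnpab, an RNA-binding protein, had signals of 2559.6 and 2540.3 at 18 months against 11278 and 11471 at 12 months, the smallest p of the comparison (adjusted p = 1.17e-07). Ptp4a2, a phosphatase of the plasma membrane, had signals of 1957 and 2029 at 18 months against 8379 and 8099.6 at 12 months, and Map3k12, a kinase that relays axon damage to the nucleus, had signals of 146 and 112 at 18 months against 504 and 461 at 12 months. Fut9, which adds fucose to form the Lewis X glycan, had signals of 119 and 145 at 18 months against 571 and 472 at 12 months, and both other Fut9 probe sets were lower too. Here too separate chips were a condition of the choice. Scd2, which desaturates fatty acids, had signals of 824 and 932 at 18 months against 3602 and 3656 at 12 months, although another probe set of Scd2 was higher by 0.32 ± 0.054. Of the 12 genes, 10 had another tested probe set, 7 had one called lower and 5 one called higher.

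**Figure D2:**
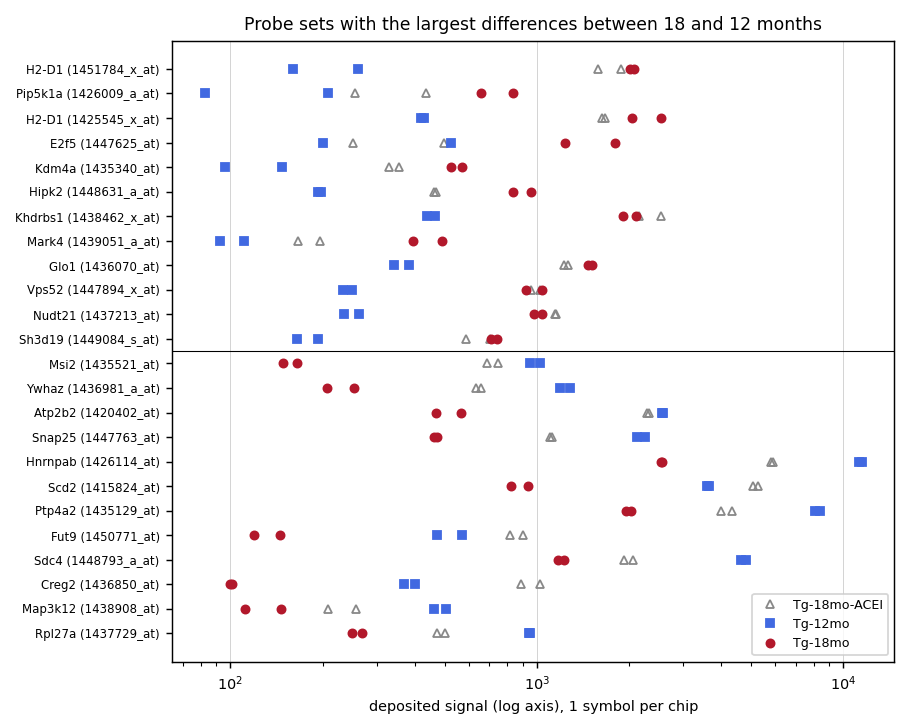
Deposited signals (x axis, log scale) of the 12 probe sets with the largest rises (top) and the 12 with the largest falls (bottom) at 18 months, 1 symbol per chip for Tg-18mo, Tg-12mo and Tg-18mo-ACEI. Tg-18mo and Tg-12mo do not overlap because separate chips were a condition of the choice, and the captopril chips lie between them, beside one of them or beyond, depending on the gene.

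Where a probe set was under 100 at one age, its ratio rests on signals near background. With 32 added to each signal, the largest such rises were Prune2 (4.0), Cryl1 (3.09), Rpl7l1 (2.98) and Tnni1 (2.49), and the largest falls were Megf11 (-2.14), Rrm2b (-1.79), Cldnd1 (-1.78) and Thoc1 (-1.68). Megf11, a receptor that spaces retinal neurons, had signals of 100.03 and 98.4 at 18 months against 574 and 519.5 at 12 months. Rrm2b, a subunit of ribonucleotide reductase, had signals of 41.6 and 42.8 at 18 months against 247 and 204 at 12 months. The captopril chips were brighter than both ages for these 2 genes, at 745 and 694 for Megf11 and 615 and 509 for Rrm2b. Cryl1, a lens crystallin relative that acts as a sugar dehydrogenase, had signals of 312 and 720.3 at 18 months against 67.0 and 4.18 at 12 months. Its 2 Tg-18mo chips lay far apart, but above both Tg-12mo chips.

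Several probe sets of a gene read different stretches of its transcripts. Of 2040 genes with 3 or more tested probe sets, 75 had all of them called higher and 90 all called lower. On both scales the counts were 44 and 52. Calls in opposite directions were found in 505 of these genes, and in 448 after quantile normalization. The 10 largest whole-gene rises on both scales were Xpr1, Apc2, Tnpo2, Nrip2, Igfbp4, Safb2, Gfap, H2-K1, Galnt2 and Nacc2. In Xpr1, Tnpo2, Igfbp4 and Safb2 not every probe set reached a mean of 100 at 12 months. Those that did not passed the filter through the 18-month chips alone, which all but fixed the direction of their calls. Igfbp4, which binds insulin-like growth factors and holds them from their receptor, rose on 6 of 6 probe sets, with log2 differences from 0.43 to 1.36. Its probe set with the smallest p had signals of 3778 and 3710.3 at 18 months against 1427 and 1490.4 at 12 months. Apc2, a neuronal relative of the APC tumour suppressor, had signals of 329.8 and 343 at 18 months against 129 and 93.4 at 12 months on the probe set with the largest difference, and its other 2 probe sets rose by 1.31 ± 0.18 and 0.57 ± 0.11. Tnpo2, a carrier of RNA-binding proteins into the nucleus, had signals of 1316 and 1403 at 18 months against 749 and 876 at 12 months on its brightest probe set. In both genes no Tg-18mo chip overlapped a Tg-12mo chip on any of the 3 probe sets, as for 75.0% of all probe sets tested. Xpr1, the phosphate exporter, ranged from 0.40 to 4.07 over 5 probe sets, and its brightest had signals of 3977 and 3843 at 18 months against 2896 and 3012 at 12 months, a difference of 0.40 ± 0.054. The 4.07 rests on 12-month signals of 54.5 and 3.82, near background.

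Whole-gene falls were led by Gh, Scn1a, Fmod, Nexmif, Cavin2, Ildr2, Itih5, Rif1, Zfand2a and C2. Gh lay near background, with means of 15.9 to 63.2 at 18 months and 107 to 151 at 12 months over its 4 probe sets. In Scn1a, Nexmif, Ildr2, Rif1 and Zfand2a not every probe set reached a mean of 100 at 18 months. Such probe sets, and those of Gh, passed the filter through the 12-month chips alone, which all but fixed the direction of their calls. Fmod, a collagen-binding proteoglycan, fell on 6 of 6 probe sets, by log2 differences of -1.64 to -0.70. Its brightest probe set had signals of 610.3 and 633 at 18 months against 1945 and 1937 at 12 months. Scn1a, a sodium channel of fast-spiking interneurons, had signals of 212 and 223 at 18 months against 513 and 575 at 12 months on the middle of its 3 probe sets, a difference of -1.32 ± 0.094. The captopril chips, at 1266 and 1354, were above both ages there. The brightest Scn1a probe set fell by only 0.31 ± 0.052, with signals of 1535 and 1556 at 18 months against 1890 and 1946 at 12 months. The captopril chips read 1935 and 1882 on it. Cavin2, a coat protein of caveolae, had signals of 122 and 125 at 18 months against 276 and 267 at 12 months on the probe set with the largest difference. Its brightest probe set fell by 0.41 ± 0.14. Ildr2, an immunoglobulin-like membrane protein, ranged from -1.81 to -0.25, with signals of 1063 and 1286 at 18 months against 2243 and 2153 at 12 months on the probe set with the median difference. The -1.81 rests on 18-month signals of 46.0 and 50.5, near background. C2, a complement protease, fell on all 3 probe sets, with signals of 189 and 189 at 18 months against 350.4 and 299 at 12 months on the middle one. When 1 chip was left out, at least 1 probe set lost its call in Xpr1, Igfbp4, Safb2, Galnt2 and Nacc2 among the rises and in Gh, Fmod, Nexmif, Cavin2, Rif1, Zfand2a and C2 among the falls.

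Opposite calls that held on both scales, with means of at least 100 at both ages, were widest in Khdrbs1, Sdc4, Ywhaz, Vapb and Rab6b. Khdrbs1, an RNA-binding protein of splicing, had signals of 1903 and 2098 at 18 months against 438 and 465 at 12 months on one probe set and signals of 1111 and 1094 at 18 months against 2149 and 1865 at 12 months on another. Sdc4, a heparan sulfate proteoglycan, had signals of 1175 and 1230.3 at 18 months against 4626 and 4814 at 12 months on one and signals of 889.9 and 1026 at 18 months against 405 and 553 at 12 months on the other of its 2 probe sets. Vapb, which links the endoplasmic reticulum to other membranes, differed by 1.75 ± 0.063, 0.074 ± 0.066 and -1.0 ± 0.06 on 3 probe sets. A single probe set therefore did not give the level of these genes.

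**Figure D3:**
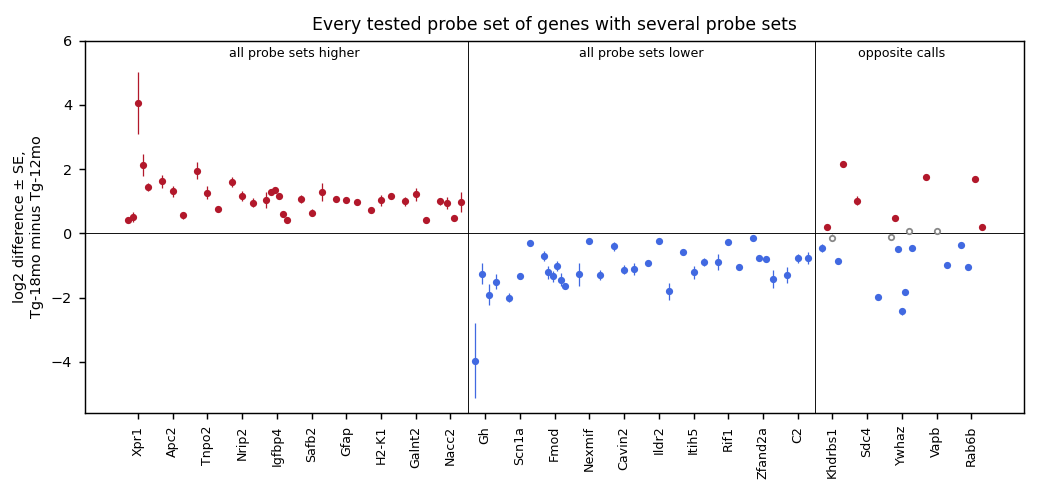
Log2 difference between Tg-18mo and Tg-12mo with its SE (y axis) for every tested probe set of 25 genes (x axis), 10 with all probe sets higher, 10 with all lower and the 5 with the widest opposite calls. Filled red and blue points were called higher and lower, and open grey points were not called.

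Of the genes that microglia switch on at plaques, more were higher than lower at 18 months. Of 21 tested members of this list 13 were higher and 5 lower, and on both scales 11 were higher and 2 lower, with a median log2 difference of 0.42 (0.37 after quantile normalization). Clec7a, a phagocytic receptor, had signals of 153 and 164 at 18 months against 53.5 and 15.9 at 12 months, a difference of 2.44 ± 0.48 from 12-month signals under 100, which was 1.57 without Tg-12mo replicate 2 and 3.31 without Tg-12mo replicate 1. Trem2, a lipid receptor, had signals of 413 and 445 at 18 months against 178 and 199 at 12 months, a difference of 1.19 ± 0.12. Cst7, a cysteine protease inhibitor of plaque microglia, had signals of 177 and 191 at 18 months against 72.1 and 51.7 at 12 months, a difference of 1.59 ± 0.22. Like Clec7a, it was under 100 at 12 months and entered the test through its 18-month signals alone. Gpnmb, a glycoprotein of lysosome-rich phagocytes, had signals of 338 and 271 at 18 months against 120.2 and 183 at 12 months. None of these 4 genes overlapped between the ages, as for 75.0% of all probe sets tested. Ctsd, the lysosomal aspartyl protease, had signals of 6351 and 6642 at 18 months against 4667 and 4716 at 12 months, a difference of 0.47 ± 0.047 that grew to 0.56 after quantile normalization. Axl, a receptor for dying cells, had signals of 636 and 659.5 at 18 months against 441 and 438 at 12 months, and Ccl6, a chemokine, had signals of 368 and 321 at 18 months against 239 and 264 at 12 months. Lgals3, a galactose-binding lectin, moved the other way with signals of 286 and 251 at 18 months against 402 and 395 at 12 months, a difference of -0.57 ± 0.13, as did Lpl, lipoprotein lipase, with -0.34 ± 0.046. The calls of lower Apoe, Ctsb and Fth1 were lost after quantile normalization. The summed signal of the 23 genes of this list on the array was lower at 18 months on the deposited scale, at 68105 and 73678 against 90129 and 91394.5, and 75435 and 78535.5 against 72656 and 73315 after quantile normalization. The captopril chips were at 181 and 204 for Cst7 and 155 and 135 for Gpnmb. In bulk tissue, more microglia and more RNA of these genes in each cell cannot be told apart. Gpnmb was no longer called without Tg-18mo replicate 1 (0.87, adjusted p = 0.0524). Ccl6 was no longer called without Tg-18mo replicate 1 or Tg-12mo replicate 1 (0.35 to 0.38, adjusted p = 0.0728 to 0.141). Lgals3 was no longer called without Tg-18mo replicate 2 (-0.48, adjusted p = 0.0589).

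Of 17 tested genes of resting microglia, 9 were higher and 3 lower (6 and 3 on both scales), with a median of 0.39 (0.30 after quantile normalization). Fcrls, a microglial Fc receptor-like protein, had signals of 829.6 and 922 at 18 months against 516 and 519 at 12 months, a difference of 0.76 ± 0.08. Olfml3 had signals of 858 and 886 at 18 months against 602 and 567 at 12 months, and Tmem119, a surface marker of microglia, had signals of 926 and 884 at 18 months against 623 and 683 at 12 months. All 3 genes were higher without overlap, and 75.0% of all probe sets tested did not overlap. Cx3cr1, the fractalkine receptor, was lower with signals of 1057 and 1098 at 18 months against 1461 and 1503 at 12 months (-0.46 ± 0.056), as were P2ry12, the ADP receptor of resting microglia (-0.27 ± 0.068), and Gpr34 (-0.57 ± 0.16). This list was therefore mixed, with P2ry13 higher by 0.60 ± 0.089 and P2ry12 lower. Ltc4s, which makes a leukotriene, rose by 0.61 ± 0.14. P2ry12 was no longer called without Tg-18mo replicate 1 (-0.23, adjusted p = 0.0726). Gpr34 was no longer called without Tg-18mo replicate 2 or Tg-12mo replicate 1 (-0.38 to -0.41, adjusted p = 0.0908 to 0.108).

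Complement genes were higher in 6 of 10 tested members and lower in 1, on both scales 6 and 0, with a median of 0.38 (0.34). The chains of C1q, which starts the classical pathway, all rose. C1qc had signals of 1880.2 and 1909 at 18 months against 1212 and 1184 at 12 months, a difference of 0.66 ± 0.055. C1qb had signals of 2615 and 2545 at 18 months against 1769.7 and 1689 at 12 months on its brightest probe set, but its other 2 probe sets were not called (0.18 and 0.14). C1qa rose less, by 0.21 ± 0.048. C3ar1, a receptor for the C3a fragment, had signals of 149 and 129 at 18 months against 92.8 and 84.9 at 12 months, and Cd59a, which blocks the membrane attack complex, had signals of 777 and 836 at 18 months against 508 and 524 at 12 months. The 12-month signals of C3ar1 were under 100. Clu, a chaperone that also limits complement, fell by 0.76 ± 0.064 on the deposited scale and differed by -0.072 after quantile normalization, where it was not called. C1qa was no longer called without Tg-18mo replicate 1 (0.19, adjusted p = 0.0503). C3ar1 was no longer called without Tg-18mo replicate 1, Tg-18mo replicate 2, Tg-18mo-ACEI replicate 1, Tg-18mo-ACEI replicate 2 or Tg-12mo replicate 2 (0.54 to 0.74, adjusted p = 0.0545 to 0.195). C2, a protease of the classical pathway that is not on this list, was lower on all 3 of its probe sets, as given above.

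Antigen presentation genes were uneven. Among 12 tested genes of MHC class I and its peptide loading, 4 were higher and 1 lower, with 4 and 0 on both scales and a median of 0.18 (0.13). The deposited shares were 33.3% and 8.33%, beside 28.3% and 21.2% of all genes. H2-K1, the other classical heavy chain, rose on all 3 probe sets, with signals of 1684 and 1729 at 18 months against 972 and 1076 at 12 months on the brightest. B2m, the light chain, had signals of 4209.6 and 4374 at 18 months against 3563 and 3334 at 12 months, a difference of 0.32 ± 0.052, and Psmb8, a subunit of the immunoproteasome, had signals of 269 and 223 at 18 months against 174 and 163 at 12 months. Of 7 tested class II genes 3 were higher and 1 lower on each scale, with medians of 0.49 and 0.43. H2-Aa had signals of 351 and 430.1 at 18 months against 162 and 132 at 12 months on its brightest probe set, a difference of 1.41 ± 0.18. Its other 2 probe sets, at 0.46 ± 0.34 and -0.85 ± 0.32, were not called. H2-Ab1 had signals of 269 and 258 at 18 months against 113 and 114 at 12 months, and Cd74, the invariant chain, had signals of 372 and 388 at 18 months against 298 and 229 at 12 months. H2-Ob, a chain that slows peptide loading, was lower with signals of 66.9 and 50.7 at 18 months against 148 and 91.6 at 12 months. Its 18-month signals were under 100. Leaving out probe sets with suffixes that mark shared sequence put the class II median at 0.031. Interferon-stimulated genes, which often rise with class I, gave 1 higher call among 18 tested, for Gbp2 with signals of 236 and 176 at 18 months against 115 and 145 at 12 months. After quantile normalization Gbp2 stood at 0.61, without a call, and 2 genes were called lower, Ifit2 and Ifih1. Psmb8 was no longer called without Tg-18mo replicate 1 or Tg-12mo replicate 2 (0.41 to 0.50, adjusted p = 0.0697 to 0.166). Cd74 was no longer called without Tg-18mo replicate 1, Tg-18mo replicate 2 or Tg-12mo replicate 2 (0.35 to 0.57, adjusted p = 0.0666 to 0.0952). H2-Ob was no longer called without Tg-18mo replicate 1, Tg-18mo replicate 2, Tg-18mo-ACEI replicate 1 or Tg-12mo replicate 1 (-0.65 to -1.20, adjusted p = 0.0524 to 0.185). Gbp2 was no longer called without Tg-18mo replicate 1 or Tg-12mo replicate 1 (0.45 to 0.50, adjusted p = 0.142 to 0.226).

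Sequence at the starts of MHC genes is shown because the same promoter letters stood in some class I and some class II genes. The Y box, CTGATTGG or its reverse complement, was searched on both strands of RefSeq promoter windows (GRCm38.p6, 250 bases before to 50 after each start). It was found in 3 of 6 class II genes with a window (H2-Aa, H2-Eb1 and H2-Oa), in 4 of 11 genes of the class I list (H2-D1, H2-K1, Psmb9 and Tap1), in 6.34% of 9921 tested genes and in 4.10% of all 32851 windows. Below are the 150 bases before the start of H2-Aa (chr17:34287824-34287973, minus strand) and of H2-D1 (chr17:35262944-35263093, plus strand), 5′ to 3′ on the gene's strand, with the Y box in capitals.
H2-Aa: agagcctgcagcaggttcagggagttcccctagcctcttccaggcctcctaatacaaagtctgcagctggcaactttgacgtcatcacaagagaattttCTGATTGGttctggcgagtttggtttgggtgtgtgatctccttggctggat
H2-D1: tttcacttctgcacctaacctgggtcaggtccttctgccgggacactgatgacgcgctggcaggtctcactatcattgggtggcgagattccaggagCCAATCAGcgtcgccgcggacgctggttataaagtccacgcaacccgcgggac
The capitals begin 51 bases before the start of H2-Aa and 53 bases before that of H2-D1, on opposite strands. In H2-K1 no whole Y box lay within the 150 bases before the start, in either of its 2 windows. In 1 of these windows the 150 bases end in the first letters of its reverse complement. The interferon-stimulated response element (GAAA, 2 bases of any kind and again GAAA) was found in 12 of 18 interferon-stimulated genes with a window, in 2 of 11 genes of the class I list (B2m and Erap1), in 3.41% of the 9921 tested genes and in 3.44% of all windows. A match of letters is a description and not a site in use.

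Astrocyte genes split. Of 13 tested genes of reactive astrocytes 4 were higher and 3 lower, with 3 and 3 on both scales. The shares were 30.8% and 23.1%, beside 28.3% and 21.2% of all genes. Serpina3n, a secreted protease inhibitor, had signals of 1408 and 1447 at 18 months against 645 and 689 at 12 months, a difference of 1.10 ± 0.067, beside the 3 probe sets of Gfap at 0.97 to 1.07. Vim, the second filament protein of reactive astrocytes, was lower with signals of 2139 and 2174 at 18 months against 3480.3 and 3119.8 at 12 months (-0.61 ± 0.062), as was Cd44, a hyaluronan receptor, with signals of 231 and 277 at 18 months against 345 and 345 at 12 months. Osmr, the receptor of oncostatin M, rose by 0.51 ± 0.17 on the deposited scale alone (0.43 after quantile normalization). Of 17 tested genes of resting astrocytes 5 were higher and 7 lower (5 and 5 on both scales), and their median was -0.12 on the deposited and 0.07 on the quantile scale. Aldh1l1, an enzyme of folate metabolism, had signals of 1640.4 and 1731 at 18 months against 916 and 992 at 12 months. Slc1a3, a glutamate transporter, was lower with signals of 3633 and 3588 at 18 months against 5954 and 5134 at 12 months, a difference of -0.61 ± 0.067, and Gja1, the connexin of astrocyte gap junctions, fell by 0.65 ± 0.043, or after quantile normalization fell by 0.31. Slc7a10, a serine transporter, rose by 0.53 ± 0.086. Myelin genes gave 7 higher and 8 lower calls of 18 tested, but 5 and 2 on both scales. Mag, an adhesion protein of myelin, had signals of 4104 and 4279 at 18 months against 2166 and 2104 at 12 months, and Fa2h, which makes the hydroxylated lipids of myelin, had signals of 2298 and 2312 at 18 months against 1095 and 1164 at 12 months. Aspa, which splits N-acetylaspartate, was lower with signals of 1281 and 1235 at 18 months against 2266 and 2064 at 12 months. Sox10, the master factor of the lineage, rose by 0.72 ± 0.071. Of 10 tested genes of oligodendrocyte precursors 2 were higher and 1 lower, and on both scales 1 was higher, Matn4, a matrix protein, with 0.90 ± 0.15. Cd44 was no longer called without Tg-18mo replicate 1, Tg-12mo replicate 1 or Tg-12mo replicate 2 (-0.32 to -0.45, adjusted p = 0.0667 to 0.157). Osmr was no longer called without Tg-18mo replicate 1, Tg-18mo replicate 2 or Tg-12mo replicate 2 (0.34 to 0.54, adjusted p = 0.107 to 0.170).

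Mural cell genes, of smooth muscle and pericytes of vessels, were higher. Of 15 tested members 10 were higher, 8 of them on both scales, and the median was 0.47 (0.39). Rgs5, a regulator of G proteins in pericytes, had signals of 4280.3 and 4656 at 18 months against 1844 and 2033 at 12 months on its brightest probe set, a difference of 1.21 ± 0.064, though another of its 4 probe sets fell by 0.72 ± 0.085. Abcc9, a subunit of the potassium channel of pericytes, had signals of 431 and 440.2 at 18 months against 182 and 189 at 12 months. Acta2, the actin of smooth muscle, had signals of 1961 and 2098 at 18 months against 1159 and 1334 at 12 months, and Tagln, which binds it, had signals of 397 and 389.6 at 18 months against 225 and 140.3 at 12 months. Myh11, the myosin of smooth muscle, had signals of 106 and 124 at 18 months against 66.5 and 56.9 at 12 months, which is under 100 at 12 months. No chip of one age overlapped the other for these 5 genes, as for 75.0% of all probe sets tested. The captopril chips were below both ages for Acta2, at 908 and 908. Pdgfrb, the growth factor receptor of pericytes, differed by -0.38 ± 0.15, which was called lower after quantile normalization alone (-0.47). Endothelial genes gave 7 higher and 4 lower calls of 21 (5 and 4 on both scales), 33.3% and 19.0% beside 28.3% and 21.2% of all genes. Pecam1, a junction protein, rose with signals of 127 and 176 at 18 months against 97.3 and 79.2 at 12 months, and Itm2a was lower with signals of 3921 and 3661 at 18 months against 5679 and 5642 at 12 months. The 12-month signals of Pecam1 were under 100. Eng, a co-receptor of TGF-β, rose by 0.60 ± 0.11, whereas Sox17, a factor of arteries, and Abcg2, a drug exporter, fell by 0.63 ± 0.11 and fell by 0.61 ± 0.086. Myh11 was no longer called without Tg-18mo replicate 1, Tg-18mo replicate 2, Tg-12mo replicate 1 or Tg-12mo replicate 2 (0.78 to 1.01, adjusted p = 0.0576 to 0.200). Pecam1 was no longer called without Tg-18mo replicate 2 or Tg-12mo replicate 2 (0.54 to 0.62, adjusted p = 0.0887 to 0.192).

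Genes of meninges and fibroblasts were lower in 10 of 25 tested members and higher in 1, with the same counts on both scales and a median of -0.33 (-0.29). Dcn, a proteoglycan of connective tissue, had signals of 2058 and 1963 at 18 months against 3958 and 3840.3 at 12 months, a difference of -0.96 ± 0.052. Ogn had signals of 557 and 605 at 18 months against 1058 and 1021 at 12 months, and Slc6a20a, an amino acid transporter of the meninges, had signals of 883 and 935 at 18 months against 1591 and 1521 at 12 months. Ccn3, a secreted matrix protein, fell by 0.97 ± 0.06. The ages did not overlap for any of them, as for 75.0% of all probe sets tested. Col1a1, a chain of type I collagen, was the exception, with signals of 119.5 and 150.3 at 18 months against 7.12 and 32.9 at 12 months, which is under 100 at 12 months. The sum of the 25 brightest signals of this list was 37000.3 and 38452 in Tg-18mo and 61324 and 60444.7 in Tg-12mo, and 38999.7 and 39732 against 53389.6 and 52182 after quantile normalization. Choroid plexus genes gave 6 higher and 3 lower calls of 22, 27.3% and 13.6% beside 28.3% and 21.2% of all genes. On both scales these were 4 and 3, and the median of 0.062 turned to -0.051 after quantile normalization. Kl, the klotho protein, was higher with signals of 1675 and 1578 at 18 months against 1120.4 and 1039 at 12 months, and Lbp, a lipopolysaccharide-binding protein, was lower with signals of 849 and 905 at 18 months against 1386 and 1449 at 12 months. Ttr, the thyroid hormone carrier that choroid plexus makes in bulk, fell by 0.96 ± 0.07, or after quantile normalization fell by 0.23. Car12, a carbonic anhydrase, rose by 0.67 ± 0.098. The summed signal of the 24 choroid genes was 35634 and 37596 against 53718 and 53208, and 38808.5 and 39792 against 43262 and 43222 after quantile normalization. Col1a1 was no longer called without Tg-18mo replicate 1, Tg-18mo replicate 2 or Tg-12mo replicate 1 (2.03 to 3.30, adjusted p = 0.105 to 0.169).

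Genes of neighbouring tissue are set beside the calls over all genes, 28.3% higher and 21.2% lower. Of 11 tested striatal genes 4 were higher and 0 lower on each scale. Drd2, a dopamine receptor, had signals of 299 and 376 at 18 months against 97.8 and 82.6 at 12 months, and Penk, the enkephalin precursor, had signals of 2177 and 2308 at 18 months against 1124 and 1031 at 12 months. The 12-month signals of Drd2 were under 100. Ppp1r1b, a phosphatase inhibitor of dopamine signalling, rose by 0.48 ± 0.12. The summed signal of the 12 striatal genes was 8845 and 8699 against 6729.5 and 6522, and 8688 and 8619.7 against 6985 and 6800.5 after quantile normalization. That of the 14 genes of thalamus and habenula was 8271 and 8245 against 7222 and 7032, and 8086 and 8148 against 7536 and 7332 after quantile normalization. Of 13 tested genes of thalamus and habenula 4 were higher and 2 lower on each scale. Lef1, a thalamic transcription factor, was higher with signals of 146 and 175 at 18 months against 64.2 and 87.4 at 12 months, while Tcf7l2, another one, was lower with signals of 102 and 90.4 at 18 months against 177 and 174 at 12 months, as was Tnnt1 (-0.95 ± 0.20), and the kinase Prkcd rose by 0.55 ± 0.056. The 12-month signals of Lef1 were under 100, as was the 18-month mean of Tcf7l2. Blood genes were under 100 on every chip in 4 of 9 cases. S100a8 and S100a9, calcium-binding proteins of neutrophils, had signals of 180.1 and 155 at 18 months against 41.1 and 1.64 at 12 months and signals of 127 and 161 at 18 months against 30.4 and 54.5 at 12 months, and Ngp, a neutrophil granule protein, had signals of 168 and 165 at 18 months against 45.4 and 31.6 at 12 months. The low 12-month signals make these ratios uncertain. Of 18 tested ependymal genes 4 were higher and 1 lower (4 and 1 on both scales), with Foxj1, the master factor of motile cilia, at signals of 298 and 208 at 18 months against 57.1 and 96.6 at 12 months. The 12-month signals of Foxj1 were under 100. Rsph1 and Spag6l, parts of the ciliary axoneme, rose by 0.58 ± 0.13 and 0.58 ± 0.19. The part of tissue other than hippocampus in any of these results was not tested. Ppp1r1b was no longer called without Tg-18mo replicate 1 or Tg-12mo replicate 2 (0.43 to 0.45, adjusted p = 0.0514 to 0.0683). S100a8 was no longer called without Tg-18mo replicate 1 or Tg-18mo replicate 2 (4.24 to 4.46, adjusted p = 0.0576 to 0.0675). Spag6l was no longer called without Tg-18mo replicate 1, Tg-12mo replicate 1 or Tg-12mo replicate 2 (0.40 to 0.60, adjusted p = 0.0626 to 0.215).

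**Figure D4:**
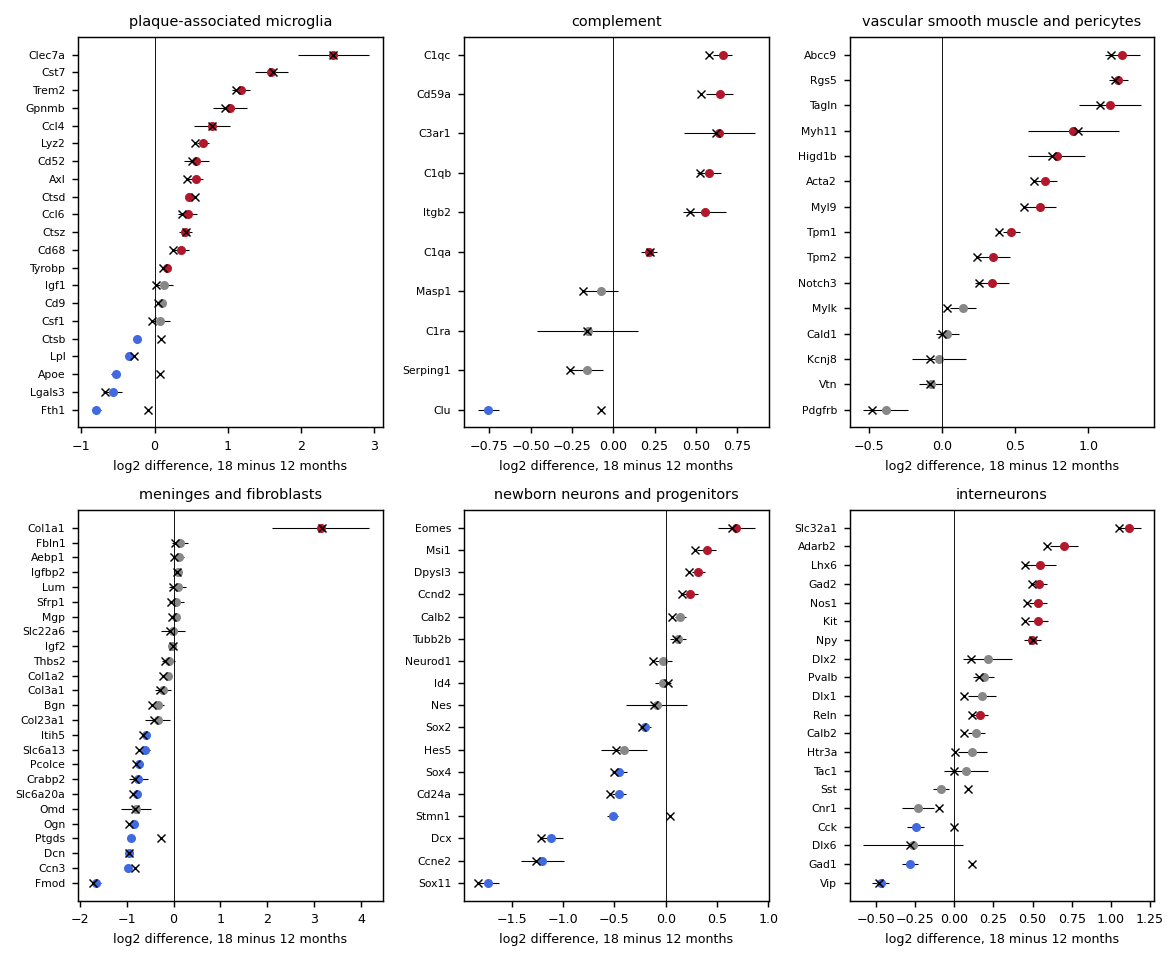
Log2 difference between Tg-18mo and Tg-12mo with its SE (x axis) for the tested members of 6 gene lists, 1 row per gene on its brightest probe set. Red and blue points were called higher and lower, grey points were not called, and crosses give the difference after quantile normalization, which moves Apoe, Fth1, Clu, Stmn1 and Gad1 to near or above 0.

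Genes of newborn neurons and their progenitors gave 4 higher and 7 lower calls of 17 tested (3 and 6 on both scales), with a median of -0.088 (-0.12). The largest falls were in Sox11, Ccne2 and Dcx. Sox11, a transcription factor of immature neurons, had signals of 192 and 195 at 18 months against 591 and 694 at 12 months on its brightest probe set, a difference of -1.73 ± 0.11. A second of its 6 probe sets fell by -0.60 ± 0.10, and the other 4 were not called. Dcx, the microtubule protein of migrating neuroblasts, had signals of 193 and 179.9 at 18 months against 393 and 412 at 12 months on one probe set and signals of 203 and 214 at 18 months against 218 and 247 at 12 months on the other, where the difference of -0.16 ± 0.15 was not called. Ccne2, a cyclin of the start of DNA synthesis, had signals of 105 and 92.7 at 18 months against 237 and 218 at 12 months. Its 18-month mean was under 100, so that it entered the test through its 12-month signals alone. Captopril chips were at 712 and 697 for Sox11 and 436 and 428 for Dcx on these brightest probe sets. Eomes, a factor of intermediate progenitors, was higher with signals of 196 and 214 at 18 months against 137 and 118 at 12 months, and Msi1, an RNA-binding protein of stem cells, was higher by 0.40 ± 0.091. Eomes was no longer called without Tg-18mo replicate 2 (0.63, adjusted p = 0.0868). Msi1 was no longer called without Tg-18mo replicate 2 (0.30, adjusted p = 0.0629).

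Of 19 tested genes of mature granule neurons 7 were higher and 4 lower, and on both scales 7 and 2. The deposited shares were 36.8% and 21.1%, beside 28.3% and 21.2% of all genes. Fam163b had signals of 2563 and 2545 at 18 months against 1429 and 1395 at 12 months, and Pde1a, a phosphodiesterase, was lower with signals of 898 and 869 at 18 months against 1599 and 1496 at 12 months. Pyramidal genes gave 7 and 3 of 22 (6 and 2), 31.8% and 13.6% beside 28.3% and 21.2% of all genes. Spink8 had signals of 1374 and 1402 at 18 months against 689 and 726 at 12 months. Cacng5, an AMPA receptor partner, had signals of 1103 and 1098 at 18 months against 616 and 453 at 12 months. Rgs14, a brake on plasticity in the CA fields, rose by 0.50 ± 0.047, and Lypd1 by 0.47 ± 0.073. Interneuron genes were higher in 8 of 20 and lower in 3 (7 and 1 on both scales), with a median of 0.17 (0.11). The vesicular GABA transporter Slc32a1 had signals of 2958 and 2952 at 18 months against 1293 and 1434 at 12 months, a difference of 1.12 ± 0.072. Gad2, which makes GABA, had signals of 2758 and 2818 at 18 months against 1908 and 1924 at 12 months, and Npy, a neuropeptide, had signals of 4023 and 4007 at 18 months against 2805 and 2887 at 12 months. All 3 were higher without overlap, and 75.0% of all probe sets tested did not overlap. Adarb2 and Lhx6, which mark interneurons of different origins, rose by 0.70 ± 0.092 and 0.55 ± 0.098. Gad1, the other GABA-making enzyme, fell by 0.28 ± 0.051 on the deposited scale and stood at 0.11, without a call, after quantile normalization. Vip, a peptide of another interneuron class, was lower with signals of 2380.0 and 2374 at 18 months against 3404 and 3186 at 12 months.

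Synaptic genes moved both ways. Of 25 tested genes of vesicle release 7 were higher and 10 lower, with 7 and 3 on both scales and medians of -0.023 and 0.11. Slc17a7, the glutamate transporter of vesicles, had signals of 4149.6 and 4315 at 18 months against 1748 and 1696 at 12 months, a 2.46-fold rise (1.30 ± 0.048). Unc13a, which primes vesicles, had signals of 1452 and 1533 at 18 months against 751 and 690.2 at 12 months, and Rph3a had signals of 7385 and 7525 at 18 months against 4462 and 4612 at 12 months. Syn2, which tethers vesicles, was lower with signals of 5814 and 6292 at 18 months against 12185 and 11777 at 12 months, a difference of -0.99 ± 0.058. For glutamate receptors and postsynaptic scaffolds 13 of 30 were higher and 6 lower, and 12 and 5 on both scales. Grm2, a presynaptic inhibitory receptor, had signals of 1312 and 1327 at 18 months against 565 and 630.3 at 12 months. Grik5, a kainate receptor subunit, had signals of 3157 and 3058 at 18 months against 1707 and 1967 at 12 months, and Dlg4, the main scaffold of excitatory synapses, had signals of 1692 and 1707 at 18 months against 1058 and 1113 at 12 months. Its relative Dlg3 rose by 0.65 ± 0.05, and Homer3, another scaffold, by 0.69 ± 0.10. Nlgn1, an adhesion protein of these synapses, was lower with signals of 521 and 547 at 18 months against 932 and 716 at 12 months, while the captopril chips stood at 1975 and 1737.

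Of 10 tested GABA-A receptor subunits 1 was higher and 5 were lower, with the same counts on both scales. Gabrg3 had signals of 84.8 and 87.8 at 18 months against 207 and 130.3 at 12 months, a difference of -0.93 ± 0.26. Its 18-month signals were under 100. Gabra2 had signals of 1921 and 1871 at 18 months against 3048 and 3049 at 12 months on its brightest probe set, a difference of -0.69 ± 0.049, but a dimmer one was higher by 0.26 ± 0.075 on the deposited scale alone (0.17 after quantile normalization). Gabrb2 fell by -0.34 ± 0.043 and Gabra5 by -0.37 ± 0.045, and Gabra3 was higher with signals of 938 and 978 at 18 months against 594 and 592 at 12 months. Calcium channels, pumps and exchangers gave 10 higher and 5 lower calls of 23 (9 and 2 on both scales). Cacna2d2, an auxiliary subunit of calcium channels, had signals of 2049 and 1961 at 18 months against 823 and 699 at 12 months, a 2.64-fold rise. Cacna1h, a low-threshold channel, had signals of 1805 and 1663 at 18 months against 1089.8 and 981 at 12 months, and Slc8a1, a sodium-calcium exchanger, was lower with signals of 1533 and 1440.3 at 18 months against 2332 and 2441 at 12 months. Ryr1, a calcium release channel, had signals of 188 and 189 at 18 months against 61.5 and 44.5 at 12 months, which is under 100 at 12 months, and Cacnb1 rose by 0.71 ± 0.097. Sodium and potassium channels gave 5 and 8 of 26 (4 and 6), 19.2% and 30.8% beside 28.3% and 21.2% of all genes. Scn4b, an auxiliary sodium channel subunit, had signals of 729 and 737 at 18 months against 350.2 and 433 at 12 months, and Kcnq5, a channel of the M current, was lower with signals of 1195 and 1197 at 18 months against 2036 and 1895 at 12 months. Kcnh1 rose by 0.71 ± 0.062, and Kcna4 fell by 0.53 ± 0.083. Gabrg3 was no longer called without Tg-18mo replicate 1, Tg-18mo replicate 2 or Tg-12mo replicate 1 (-0.60 to -0.96, adjusted p = 0.0616 to 0.0893). The dimmer Gabra2 probe set was no longer called without Tg-18mo replicate 2 or Tg-12mo replicate 1 (0.18 to 0.20, adjusted p = 0.0983 to 0.133).

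Activity-dependent genes divided. Of 26 tested immediate early genes 11 were higher and 9 lower, 8 and 9 on both scales, with a median of 0.006 (-0.02). Npas4, a factor induced by calcium entry in neurons, had signals of 209.9 and 194 at 18 months against 82.3 and 65.2 at 12 months, a difference of 1.46 ± 0.24. Its 12-month signals were under 100. Arc, which drives removal of AMPA receptors, had signals of 2256 and 2157 at 18 months against 1318 and 1371 at 12 months, and Nptx2, a secreted pentraxin, had signals of 874 and 911 at 18 months against 439.9 and 513 at 12 months. The 18-month chips were the higher ones in each, and the captopril chips were at 87.3 and 113, 1404 and 1313 and 442 and 476. Fosb had signals of 156 and 149.99 at 18 months against 82.4 and 81.8 at 12 months, and Btg2, which slows cell division, rose by 0.77 ± 0.13. The 12-month signals of Fosb were also under 100. Members of the Nr4a family went the other way: Nr4a2 had signals of 2454 and 2386 at 18 months against 3436 and 3268 at 12 months, and Nr4a3 had signals of 2008 and 2037 at 18 months against 2926 and 2998 at 12 months. Jund fell by 0.55 ± 0.045. Of 23 tested genes of the glucocorticoid response 3 were higher and 10 lower (2 and 8 on both scales), with a median of -0.18 (-0.11). Ddit4, an inhibitor of mTOR signalling, had signals of 2098 and 2021 at 18 months against 555 and 481 at 12 months, a 3.99-fold rise. Fkbp5, a co-chaperone of the receptor, rose on both probe sets, with signals of 1955 and 1901 at 18 months against 1137 and 1101 at 12 months on the brighter. Sgk1, a kinase induced by corticosteroids, was lower with signals of 5112 and 4316 at 18 months against 11179.8 and 9834 at 12 months, a difference of -1.16 ± 0.096, and Sult1a1 had signals of 376 and 363 at 18 months against 700.0 and 792 at 12 months. The hormone response genes with the largest differences were thus not all on one side.

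Clock genes gave 5 higher and 4 lower calls of 19 (4 and 4 on both scales), 26.3% and 21.1% beside 28.3% and 21.2% of all genes. Nfil3, a repressor of clock output, had signals of 479 and 508 at 18 months against 197 and 280.2 at 12 months, Per2 had signals of 553 and 486 at 18 months against 382 and 289 at 12 months, and Cry1 was lower with signals of 367 and 313 at 18 months against 642 and 481 at 12 months. Nr1d1 rose by 0.60 ± 0.22 on the deposited scale alone (0.51 after quantile normalization). The hour of dissection is not given in the sources used here. Among 9 tested neurotrophins and receptors 7 were higher (5 on both scales), with a median of 0.23 (0.25). Ntrk2, the receptor of brain-derived neurotrophic factor, had signals of 5259 and 5217 at 18 months against 3735 and 3529.5 at 12 months, and Gfra1, a receptor for glial neurotrophic factors, had signals of 1654 and 1697 at 18 months against 1207 and 1098 at 12 months. Ntrk3 rose by 0.32 ± 0.054. Ngfr, the low-affinity receptor, had signals of 205 and 241 at 18 months against 54.4 and 118 at 12 months, where one Tg-12mo chip was far below the other. The 12-month mean of Ngfr was under 100. Nr1d1 was no longer called without Tg-18mo replicate 1, Tg-18mo replicate 2, Tg-12mo replicate 1 or Tg-12mo replicate 2 (0.56 to 0.63, adjusted p = 0.102 to 0.164).

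Of 21 tested genes of APP processing 10 were higher and 7 lower, and 7 and 3 on both scales. The probe sets of App itself fell by 0.27 ± 0.052 and fell by 0.57 ± 0.059 on the deposited scale and stood at 0.054 and 0.01 after quantile normalization, with no call. Bace1, the protease that makes the first cut toward Aβ, was lower with signals of 2568 and 2643 at 18 months against 3849 and 3861 at 12 months, a difference of -0.57 ± 0.047 (adjusted p = 4.25e-05). Aph1b, a subunit of γ-secretase, was lower with signals of 1403 and 1531 at 18 months against 2469 and 2408 at 12 months, and Ncstn, another subunit, was higher with signals of 390.1 and 452 at 18 months against 203 and 297 at 12 months. Adam17, a protease that can cut APP within Aβ, had signals of 413 and 361 at 18 months against 236 and 256 at 12 months, while Adam10, another one, fell by 0.23 ± 0.055. Sorl1, which sorts APP away from cleavage, was higher with signals of 7174 and 7647 at 18 months against 5556 and 5502 at 12 months, and Ece2, an endopeptidase that can degrade Aβ, rose by 0.71 ± 0.18. Whether these probe sets tell the human transcript from the mouse one was not tested. Ncstn was no longer called without Tg-18mo replicate 2 (0.67, adjusted p = 0.0721). Adam10 was no longer called without Tg-18mo replicate 2 (-0.19, adjusted p = 0.0661). Ece2 was no longer called without Tg-18mo replicate 2 (0.67, adjusted p = 0.0738).

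Of 23 tested genes of tau and its kinases 8 were higher and 9 lower (6 and 4 on both scales). Map1a, a microtubule protein of mature dendrites, had signals of 6300.2 and 6319 at 18 months against 3001 and 2951 at 12 months, a 2.12-fold rise, and its second probe set rose by 0.65 ± 0.09. Map1b, its counterpart of growing axons, had signals of 903 and 922 at 18 months against 1725 and 1804 at 12 months, a difference of -0.95 ± 0.056. Csnk2a1, a subunit of casein kinase, had signals of 879.9 and 861 at 18 months against 2349 and 2232 at 12 months on the brightest probe set, but of its 5 probe sets 3 were lower and 2 higher. Csnk2a2, its partner, fell by 0.67 ± 0.076. In the renin-angiotensin system, the target of captopril, 3 of 7 tested genes were higher and 2 lower, and 3 and 1 on both scales. Ace had signals of 695 and 551 at 18 months against 337 and 388 at 12 months on the brighter and signals of 372 and 345 at 18 months against 214 and 261 at 12 months on the dimmer probe set, differences of 0.78 ± 0.19 and 0.60 ± 0.15. Agt, the precursor of angiotensin, was lower with signals of 730.5 and 454 at 18 months against 1229.7 and 1184 at 12 months, a difference of -1.07 ± 0.19. Agtrap, which binds the angiotensin receptor, had signals of 246 and 242 at 18 months against 54.1 and 142 at 12 months, and Rnpep, an aminopeptidase, rose by 0.71 ± 0.11. The 12-month mean of Agtrap was under 100. Without Tg-18mo replicate 1 or Tg-12mo replicate 1 neither Ace probe set was called, at 0.61 and 0.68 on the brighter (adjusted p = 0.0769 and 0.0536) and 0.54 and 0.46 on the dimmer (0.0795 and 0.0534). Ace is also a marker of choroid plexus, whose values are given above. Agtrap was no longer called without Tg-18mo replicate 1 or Tg-18mo replicate 2 (1.46 to 1.49, adjusted p = 0.0517 to 0.0541).

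Epha4, a receptor of axon guidance, was measured by 5 tested probe sets. The brightest had signals of 4333 and 3370.3 at 18 months against 4296 and 3646 at 12 months and was not called. Another had signals of 435 and 323 at 18 months against 1452 and 1267 at 12 months, a difference of -1.86 ± 0.13, and 2 more fell by 1.21 ± 0.078 and fell by 1.64 ± 0.12, whereas one was higher by 0.28 ± 0.055. Apoe, the main lipid carrier of the brain, fell by 0.53 ± 0.058 on the deposited scale and differed by 0.07 after quantile normalization, where it was not called.

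The brightest housekeeping lists depended on the scale. Of 47 tested genes of oxidative phosphorylation 40 were lower and 3 higher, but on both scales 12 and 3, and the median went from -0.42 to -0.031. Members lower on both scales included Cyc1, the cytochrome of complex III, at -0.78 ± 0.054 and -0.38, Ndufs7 at -0.66 ± 0.054 and -0.41, and Uqcrc2 at -0.62 ± 0.051 and -0.32. The largest falls on the deposited scale, of Cox6a1 (-0.85 ± 0.074), Cox5b (-0.82 ± 0.073) and Ndufb9 (-0.78 ± 0.062), shrank to -0.19, -0.16 and -0.26. For ribosomal proteins the counts were 36 lower and 2 higher of 43, and 12 and 2 on both scales, with medians of -0.57 and -0.063. Rps2 moved from -0.82 ± 0.06 to -0.20 and Rpl13a from -0.79 ± 0.046 to -0.10, while the only tested Rpl27a probe set stayed at -1.87 ± 0.091 and -1.96. That probe set was dim, with signals of 249 and 269 at 18 months against 941 and 949 at 12 months. Glycolysis turned its direction, from 4 higher and 6 lower of 15 to 10 higher after quantile normalization, with medians of -0.082 and 0.22. Pfkl, which commits sugar to glycolysis, was higher on both scales, with signals of 6135 and 6579 at 18 months against 3480.5 and 3855 at 12 months (0.79 ± 0.061), and Pfkfb3, which stimulates this step, had signals of 469 and 488 at 18 months against 305 and 318 at 12 months. Tpi1 fell by 0.53 ± 0.054 and Aldoc fell by 0.51 ± 0.085 on the deposited scale and stood at 0.0092 and 0.045 after quantile normalization. All 6 tested 14-3-3 proteins were lower on the deposited scale, and after quantile normalization 2 were called higher. The largest difference, of Ywhab, moved from -0.66 ± 0.056 to -0.015. In the proteasome 14 of 32 members were lower and 2 higher on both scales, beside 18 and 2 on the deposited one, with medians of -0.19 and -0.098. Psmb3 had signals of 5329 and 5347 at 18 months against 8208 and 8266 at 12 months, a difference of -0.63 ± 0.045, Psmc2 had signals of 8021 and 7619 at 18 months against 12072 and 11631 at 12 months, and Psma6 had signals of 8053 and 8352 at 18 months against 12629 and 12114 at 12 months. Psmd6 fell by 0.54 ± 0.063. Psmd2 and Psmd3, of the regulatory particle, were higher by 0.42 ± 0.054 and 0.52 ± 0.06.

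Of 25 tested antioxidant enzymes 11 were lower and 4 higher (8 and 4 on both scales), with a median of -0.12 (-0.073). Mgst3, a microsomal glutathione transferase, had signals of 2920.2 and 2949.9 at 18 months against 5762 and 5971 at 12 months, a difference of -1.0 ± 0.046. Gclm, the modifier subunit of glutathione synthesis, had signals of 1054 and 976 at 18 months against 1789 and 1959 at 12 months, and Gpx4, which reduces lipid peroxides, had signals of 9733 and 10659 at 18 months against 16414 and 17828 at 12 months. Txnrd1, thioredoxin reductase, was higher with signals of 2024 and 1925 at 18 months against 1216 and 1351 at 12 months, as was Srxn1 with signals of 1944 and 1835 at 18 months against 1195 and 1329.7 at 12 months. Sod3, the extracellular superoxide dismutase, rose by 0.81 ± 0.16. Lipid synthesis gave 8 higher and 6 lower calls of 25 (8 and 4), 32% and 24% beside 28.3% and 21.2% of all genes. Srebf2, the factor that drives cholesterol synthesis, had signals of 2325 and 1729 at 18 months against 882 and 893 at 12 months, whereas Lss, an enzyme of that pathway, was lower with signals of 390.1 and 425 at 18 months against 625 and 671 at 12 months. Fads2, a desaturase, and Elovl6, an elongase of fatty acids, rose by 0.82 ± 0.071 and 0.61 ± 0.066. Of 27 tested lysosomal genes 9 were higher and 4 lower, and 9 and 1 on both scales. The deposited shares were 33.3% and 14.8%, beside 28.3% and 21.2% of all genes. Glb1, a galactosidase, had signals of 1043 and 1065 at 18 months against 594 and 619 at 12 months, and Cln3, a lysosomal membrane protein, had signals of 344 and 390.3 at 18 months against 150.2 and 204 at 12 months. Ctsf, a cysteine protease, had signals of 1128 and 1109 at 18 months against 542 and 768 at 12 months. Atp6v1h, a subunit of the proton pump, fell by 0.41 ± 0.045.

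Chaperones gave 9 higher and 11 lower calls of 27, and 8 and 4 on both scales, with medians of -0.053 and 0.071. Stip1, a bridge between chaperones, had signals of 2962 and 2939 at 18 months against 1793 and 1864 at 12 months, and Cct4, a chaperonin subunit, was lower with signals of 6000.3 and 5746 at 18 months against 8475 and 8139.5 at 12 months. Hspa4l rose by 0.58 ± 0.061, and Hspa8, the constitutive chaperone, fell by 0.76 ± 0.054 on the deposited scale but stood at -0.077, without a call, after quantile normalization. For the unfolded protein response the counts were 6 and 4 of 19 (4 and 3), 31.6% and 21.1% beside 28.3% and 21.2% of all genes. Atf6, its membrane-bound factor, was higher with signals of 1560.5 and 1568 at 18 months against 1028 and 924 at 12 months. Dnajb9, a chaperone of the endoplasmic reticulum, was lower with signals of 4101 and 4376 at 18 months against 6498 and 6304 at 12 months. Xbp1, another of its factors, fell by 0.45 ± 0.042, and Pdia6 rose by 0.36 ± 0.062. Of 32 tested chromatin regulators 15 were higher and 6 lower (11 and 6 on both scales), with a median of 0.17 (0.12). Kmt2d, a histone methyltransferase, had signals of 1631 and 1483 at 18 months against 1007 and 903 at 12 months, and Smarca4, a remodelling ATPase, had signals of 4694 and 4562 at 18 months against 3086 and 3068 at 12 months. Nipbl, which loads cohesin, was lower with signals of 537 and 506 at 18 months against 919 and 1127 at 12 months, as was the demethylase Kdm6a with signals of 307 and 342 at 18 months against 559 and 517 at 12 months. Chd1, a remodeller, fell by 0.82 ± 0.13. RNA-binding proteins gave 8 higher and 15 lower calls of 37 (5 and 11). Cirbp, which is induced by cold, was lower with signals of 1232 and 1182 at 18 months against 1959 and 1931 at 12 months, Rbfox2, a splicing factor, was lower with signals of 701 and 719 at 18 months against 999 and 1098 at 12 months, and Elavl1 was higher with signals of 1457 and 1204 at 18 months against 841 and 866 at 12 months. Celf1 fell by 0.62 ± 0.054, and Nova2, a splicing factor of neurons, rose by 0.60 ± 0.073.

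Long noncoding RNAs gave 6 higher and 3 lower calls of 11 tested (6 and 2 on both scales), with medians of 0.45 and 0.46. Mirg and Rian, transcripts of the imprinted Dlk1-Dio3 domain, were both higher, with signals of 246 and 265 at 18 months against 114 and 86.9 at 12 months and signals of 2069.8 and 2158 at 18 months against 1045 and 1162 at 12 months. Neat1, the scaffold of paraspeckles, had signals of 698 and 578 at 18 months against 371 and 352 at 12 months, and Snhg11 had signals of 2405 and 2406 at 18 months against 1240.0 and 1123 at 12 months. Kcnq1ot1, an imprinted antisense transcript, rose by 1.12 ± 0.33. Malat1, an abundant nuclear transcript, was lower on its brightest probe set with signals of 979 and 829 at 18 months against 2348 and 2543 at 12 months, a difference of -1.44 ± 0.082. Of the 6 Malat1 probe sets 4 were lower and 2 were not called (-0.13 and 0.17). The captopril chips stood at 2955 and 2885 on the brightest. Kcnq1ot1 was no longer called without Tg-18mo replicate 2 or Tg-12mo replicate 2 (0.71 to 0.85, adjusted p = 0.0923 to 0.160).

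**Figure D5:**
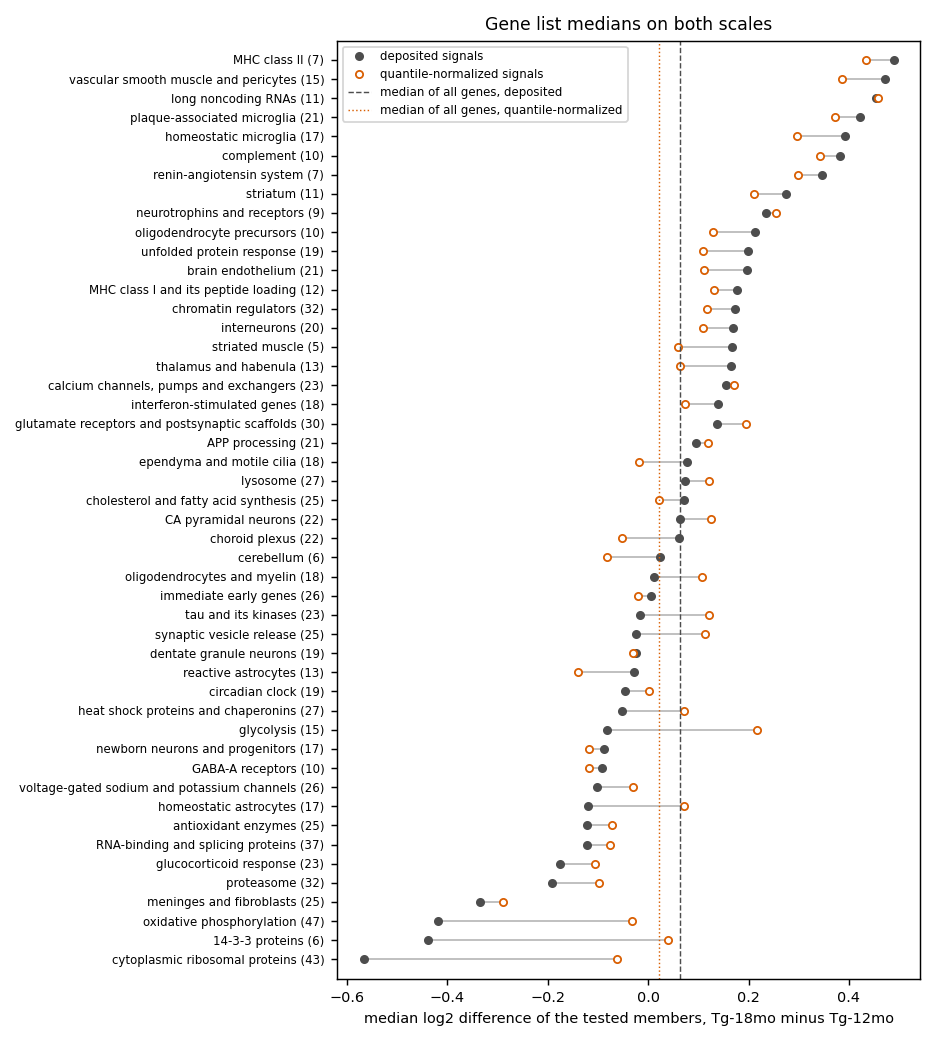
Median log2 difference between Tg-18mo and Tg-12mo (x axis) over the tested members of each gene list with at least 5 of them (their number in brackets), on the deposited scale (filled) and after quantile normalization (open). The lists of ribosomal proteins, oxidative phosphorylation and 14-3-3 proteins move most between the scales, to between -0.06 and 0.04, while MHC class II, smooth muscle and plaque microglia stay above the medians of all genes (dashed and dotted lines).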

How the data were processed

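Hippocampal RNA of 4 mice was pooled for each MG430 2.0 chip, and 2 chips were hybridised for each of Tg-18mo, Tg-18mo-ACEI and Tg-12mo. Deposited values are linear signal intensities from the GCOS software, per the submitters' processing notes, which the authors scaled to a target of 600 on each chip. Signals were taken to log2 with nothing added. A model with 3 group means over all 6 chips was fitted with limma (lmFit, eBayes with an intensity trend; limma 3.58.1, R 4.3.3; 3 residual degrees of freedom), and p-values were adjusted after Benjamini-Hochberg over the 22887 probe sets with a mean of at least 100 at either age. The fit was repeated after quantile normalization, after cyclic loess and with each chip divided by its median. Tables and plots were made with pandas 2.3.3 and matplotlib 3.10.9, and the fit was tested on simulated data.

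Probe sets were named through the platform annotation, and only those with 1 symbol are named here. Named genes were the 12 largest rises and 12 largest falls with means of at least 100 at both ages, separate chips and calls on both scales, the 10 whole-gene rises and falls with the largest median over 3 or more probe sets, the 5 widest opposite calls, the 4 largest low-signal differences each way, the 4 largest differences of each list (not all of them printed), and all probe sets of App, Gfap, Trem2, Ace, Apoe and Epha4. Other list members are named after their values were seen. Members and lists were chosen with earlier results of these data known. Probe sets with the suffix _x_at or _s_at can match transcripts of related genes, such as H2-D1 and H2-K1. Replicate numbers did not pair the chips: same-numbered deviations from group means correlated at 0.030 between Tg-18mo and Tg-12mo, at -0.031 between Tg-18mo and Tg-18mo-ACEI and at -0.056 between Tg-18mo-ACEI and Tg-12mo. The number of chips limits the precision. Alternatives were other minimum signals, 32 added to each signal, no intensity trend, the 4 chips alone, a replicate block, each chip left out, and the methods' t-test. Promoter windows are from RefSeq (GRCm38.p6).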

Additional observations from a re-analysis of the deposited data

How the results depend on the processing

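The counts of 6019 higher and 4969 lower probe sets stayed within 1.5 times under all other normalizations, minimum signals and limma settings. The methods' t-test, with its own spread for each probe set, called 705 higher and 623 lower after Benjamini-Hochberg on linear signals and 581 and 510 on log2 signals. At the thresholds of the study it gave 271 higher and 174 lower on linear and 250 and 180 on log2 signals, in place of 599 and 415. These 2 counts were also lower with fewer probe sets tested, at 373 and 250 where the mean of all 6 chips reached 200, and at 384 and 252 with means of at least 100 at both ages, and the count of falls was 272 with 32 added to each signal. Leaving out 1 chip gave 4315 to 5650 higher and 3755 to 4731 lower, and 516 to 731 and 396 to 435 at the thresholds of the study. With a replicate block, 5803 were higher and 4751 lower. Under cyclic loess 48 genes, in place of 75, had all of 3 or more probe sets higher. Of called probe sets, 54.8% were higher, 50% after quantile normalization and 49.3% after cyclic loess.

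Of 387 called probe sets among 424 named ones, leaving out 1 chip ended 5 to 46 calls, a replicate block ended 8, and neither turned any. After quantile normalization 27 changed sign, and all 27 were bright and lower at 18 months on the deposited scale. Their log2 differences became 0.070 for Apoe, 0.054 and 0.010 for App, 0.10 for Rab6b, 0.051 for Calr, 0.045 for Aldoc, 0.0049 for Mbp, 0.039 for Bcas1, 0.15 for Pcp4, 0.11 for Gad1, 0.038 for Stmn1, 0.0080 for Fam107a, 0.0092 for Tpi1, 0.32 for Aldoa, 0.13 for Uqcrb, 0.24 for Scd2, 0.060 for Snap25, 0.070 for Kcnab2, 0.17 for Atp2a2, 0.12 for Itm2b, 0.076 for Atp6ap2, 0.16 for Ppp3ca, 0.12 for Psap, 0.046 for Gas5, 0.040 for Ywhaz, 0.0027 for Ywhaq and 0.037 for Ywhag. Cyclic loess also turned Pcp4 (0.054), Aldoa (0.026), Kcnab2 (0.048) and Gas5 (0.016). The cause was not tested. List medians of resting astrocytes, choroid plexus, ependyma, immediate early genes, chaperones, glycolysis, vesicle release, tau kinases, clock genes, cerebellum and 14-3-3 proteins changed sign after quantile normalization. Medians of reactive and resting astrocytes, myelin, granule neurons, immediate early genes, vesicle release, tau kinases, cerebellum, pituitary hormones and NADPH oxidase changed sign when 1 chip was left out. A signal near 100 lies close to background, and 2 chips for each age leave small differences undetected.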

Other observations

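Neighbouring genes on chromosome 17 were among the largest rises, a grouping seen after the values and given without a test. Of 566 tested genes on chromosome 17, 56 had a probe set higher at 18 months at the thresholds of the study (9.89%), beside 492 of 12218 genes on all chromosomes (4.03%). Lower probe sets were found in 2.47% and 2.59%. From Vps52 to Pbx2, the stretch with the MHC class II genes, 22 genes were tested, and 8 had such a higher probe set. They were Vps52, AA388235, H2-K1, Col11a2, H2-Ab1, H2-Aa, H2-Ea and Pbx2. Both ends of the stretch were set on such genes after the values were seen, which raises this count. H2-Ea, a class II chain that C57BL/6 mice carry with a disrupted promoter, read 174 and 146 at 18 months, 21.1 and 46.5 at 12 months, and 17.4 and 45.4 with captopril. It was under 100 at 12 months and entered the test through its 18-month signals alone. Genes between these 8, such as Rxrb and Notch4, differed by -0.22 and 0.012. Runs of 5 genes with a higher probe set were also found on chromosome 7 (Ercc1, Ppp1r13l, Ercc2, Mark4 and Ppp1r37, among 10 tested genes) and chromosome 9 (Arid3b, Sema7a, Stra6, Islr2 and Pml, among 8).

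Some small lists had few tested members. Ighm, the heavy chain of the first antibody class, was 1 of 2 tested immunoglobulin genes and rose by 1.13 on the log2 scale on its brightest probe set. Of 6 tested cerebellar genes 2 were higher and 2 lower, with Slc1a6 at 0.59 and Car8 at -0.46, calls that were lost when 1 chip was left out. Tnnt2, a troponin of heart muscle, rose by 4.32 from 12-month signals under 100 and was not called without either Tg-18mo chip, and Cyba, a subunit of NADPH oxidase, rose by 0.74. Eif2s3y, a Y-linked gene, fell by 0.74 in these pools of males.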
